A study of Mus musculus with 36 samples.

Results

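Partly methylated reads of the *Wnt1DR* DMD were defined as bisulfite reads in which 4 to 16 of 20 CpGs were called methylated. Only reads that the alignment software had kept were considered, with an identity to the reference of at least 98 % and with each of the 20 CpGs called either methylated or unmethylated. Libraries with at least 200 such reads were used, which were 15 of the 36. These 15 libraries held 23012 partly methylated reads among 170514 complete reads, or 13.5 %. The other 21 libraries held a further 1242, so that the series had 24254 in all among 280217 complete reads. The reads were thus chosen by their number of methylated CpGs, and this number and the share of such reads are given as a description without a test. Just outside the lower limit lay 1288 reads with 3 methylated CpGs, and just inside it 4294 with 4, of which all but 1082 came from oocyte pool 2. At the upper limit, 4437 reads had 16 methylated CpGs and 6212 had 17.

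At an imprinted locus, 1 parental allele carries 5mC over a differentially methylated domain, and the other does not. The *Rasgrf1* ICR acquires its 5mC in the male germline, so that a read from a paternal allele is commonly full and a read from a maternal allele commonly empty. Since a bisulfite read shows the state of every CpG on 1 strand of 1 molecule, partly methylated reads reveal which CpGs of a molecule carry 5mC together. Copies of 1 template molecule carry the same pattern after PCR, and reads were not tagged by molecule.

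*Wnt1DR* is a targeted mouse allele that places the *Rasgrf1* DMD and its repeats at *Wnt1*, an ectopic locus that is not imprinted. One PCR product of the allele was sequenced from tails, sperm, oocytes and e9.5 embryos. Genotypes are given with the maternal allele first. The libraries used here came from tails of 4 adult +/DR animals, which inherited the allele from their fathers: 32802 (generation F6, paternal lineage), 32529 (F6, alternating lineage), and 31508 and 31819 (both F4, alternating lineage). Unfractionated sperm came from the DR/DR males 35084 and 35090. Sperm of the +/DR males 35669 and 35670 was divided by a swim-up assay, in which motile sperm enter the supernatant and the others remain in the pellet. Extraembryonic tissue, head, spine and visceral organs came from +/DR embryos at e9.5. The sources used here do not say how many embryos gave these tissues, or whether the 4 tissues came from the same ones. Oocyte pool 2 held oocytes labelled DR/+, amplified by a nested PCR with carrier DNA. Complete reads per library numbered 2373 to 26496, and the tail of 32802 was the only library of the 15 from sequencing run 1. The remaining tails of paternal transmission (8), all 8 tails and 4 e9.5 tissues of maternal transmission (DR/+), and oocyte pool 1 had fewer than 200 partly methylated reads each.

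The sequence under the reads lies on chromosome 9 from 89774437 to 89774686 (NCBIM37, plus strand) in its native copy. No annotated gene overlaps it, and it ends 29.9 kb upstream of *Rasgrf1*. CpGs were numbered 1 to 20 from the start of the reads, at 89774498 to 89774665. Some stretches are shown, with the CpGs in capitals, because levels or breaks in the patterns differed there. The stretches from CpG 2 to CpG 5 and from CpG 8 to CpG 11 hold 4 doublets in which CpGs follow each other directly. The next pair hold the 22-nt and 15-nt distances at which single breaks were most frequent, and the last holds the CpGs that were lowest in sperm.
CpG 2 to CpG 5 (chr9:89774512-89774522): CGCGcttCGCG
CpG 8 to CpG 11 (chr9:89774543-89774552): CGCGgcCGCG
CpG 11 to CpG 12 (chr9:89774551-89774574): CGctgctgctcccacatccatcCG
CpG 16 to CpG 17 (chr9:89774625-89774641): CGcacttcactgttgCG
CpG 17 to CpG 20 (chr9:89774640-89774666): CGctacCGctgCGctacaactaccaCG

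Some libraries shared patterns, which bears on the results below. A switch is a change of state between neighbouring CpGs, and patterns with 6 or more switches were used for this count because those with fewer switches recurred in more libraries. The e9.5 head and the F4 tails of 31508 and 31819 held the same patterns of this kind, although they came from different animals. In the lines that give patterns, filled circles are methylated CpGs and open circles unmethylated ones, from CpG 1 to CpG 20.
Pattern with 6 switches: ●●●●●●○●●○●●●●●○○●●●
Pattern with 8 switches: ○○○○○●○●●●●○○○●○○●●○
The pattern with 6 switches was read 31 times in the e9.5 head, 18 times in the tail of 31819 and 9 times in that of 31508. The pattern with 8 switches was read 24 times in the head, 24 times in the tail of 31819 and 9 times in that of 31508. Outside these 3 libraries, only 2 reads with either pattern were found, both in the pellet of 35670. Together the 2 patterns made up 20.2 % of the partly methylated reads in the head, 10.3 % in the tail of 31819 and 7.76 % in that of 31508.

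Among reads with 6 or more switches, 18.3 to 48.5 % of those of each of these 3 libraries had a pattern found in another of the 3, by pair. Over the other 100 pairs of libraries from different animals or tissues, the median was 0.471 %, and the highest value apart from extraembryonic tissue was 25 %, for reads of the head found in the pellet of 35670, which held 2 reads of the pattern with 6 switches. The cosine similarity of pattern counts, which is 0 for libraries with no pattern in common and 1 for identical shares, was 0.71 to 0.76 within the 3 and had a median of 0.06 over the other pairs. The highest of those was 0.64, for the pellet of 35670 and visceral organs, which share few reads with 6 or more switches (0.162 and 5.97 %). Reads with 17 or 18 methylated CpGs, which are not partly methylated by the rule, gave 0.74 to 0.88 within the 3, and a median of 0.08 and a highest value of 0.53 over the other pairs. Why the 3 libraries share patterns was not tested, and comparisons that include them are given with and without them.

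**Figure D1:**
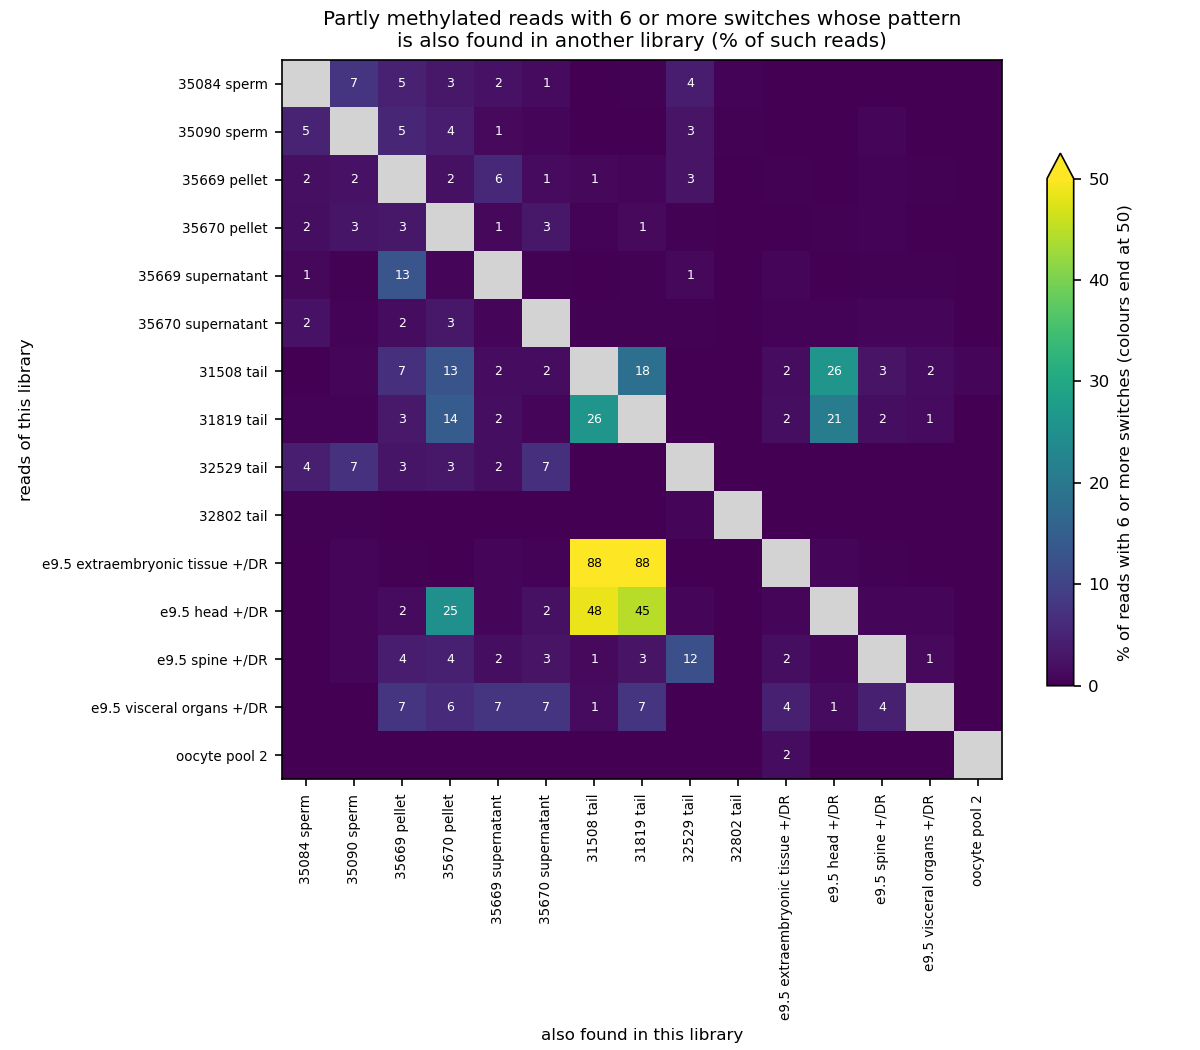
Share of the partly methylated reads with 6 or more switches of 1 library (rows) whose pattern was also found in another (columns), in %, with numbers printed from 1 % upwards and grey on the diagonal. The e9.5 head and the tails of 31508 and 31819 share 18.3 to 48.5 %, and the 2 highest cells, at 87.7 and 87.9 %, arise because the most frequent pattern of e9.5 extraembryonic tissue was also read once in each of these tails.

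Pellet and supernatant of the same male also had patterns in common. In animal 35669, a pattern with 7 switches was read 24 times in the pellet and 88 times in the supernatant, and another with 6 switches 9 and 84 times. Across both males, 3.14 to 13.3 % of the reads with 6 or more switches in a fraction had a pattern found in the other fraction of that male. Some patterns were shared between other animals. A pattern with 7 switches was read 8 times in the tail of 31819 and 11 times in the pellet of 35670, and another 14 times in the tail of 32529, 4 times in the pellet of 35670 and once in sperm of 35090. A further one with 7 switches was read 4 times in the tail of 32529, 15 times in the pellet of 35669 and 11 times in its supernatant. Other patterns were shared through single reads. The most frequent pattern of extraembryonic tissue, for example, was read 939 times there and once in each of the tails of 31508 and 31819.

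The share of partly methylated reads was highest in unfractionated sperm, while swim-up fractions lay below oocyte pool 2 and extraembryonic tissue. Unfractionated sperm came from DR/DR males and the fractions from +/DR males. Fractionation, genotype and animal thus cannot be told apart wherever these samples are set side by side. In unfractionated sperm the share was 27.8 % (95 % Wilson interval 26.05 to 29.65) for 35084 and 26.8 % (25.4 to 28.2) for 35090. The pellets had 15.5 % (35669) and 15.9 % (35670), and the supernatants 17.5 % and 13.6 %. In embryos, extraembryonic tissue had 20.7 %, against 4.93 % in spine, 3.35 % in head and 3.34 % in visceral organs. Tails had 16.9 % in 32529, 5.94 % in 32802, 3.67 % in 31819 and 3.21 % in 31508. Oocyte pool 2 had 21.2 %. Below the limit of 200 reads, the other 8 tails of paternal transmission had 1.68 to 3.94 %, tails of maternal transmission 0.24 to 1.36 %, and e9.5 tissues of maternal transmission 0.51 to 0.59 %. Such intervals cover counting error only.

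The number of methylated CpGs in these reads also differed between libraries. Its median was 16 in the tails of 32802 and 32529 and in extraembryonic tissue, 14 in spine and in the supernatant of 35669, 13 in both unfractionated sperm samples, and 12 in the tails of 31508 and 31819 and in the pellet of 35669. The fractions of 35670 had a median of 11, the head and the visceral organs 9, and oocyte pool 2 had 4. Reads on either side of the range set the frame. In unfractionated sperm 54.4 and 55.4 % of complete reads had 0 to 3 methylated CpGs and 17.8 % in each had 17 to 20. In the 4 tails 72.2 to 92.2 % had 17 to 20.

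A similar profile along the 20 CpGs recurred in all 6 sperm libraries. CpGs 2, 4 and 8 were high, at 70.9 % ± 7.6 (SD, n = 6 libraries from 4 males), 70.5 % ± 6.8 and 75.0 % ± 5.9 of partly methylated reads. CpGs 17, 19 and 20 were low, at 37.8 % ± 4.9, 32.8 % ± 9.1 and 30.2 % ± 4.8. CpG 20 was read as methylated in 31.8 % (35084), 32.9 % (35090), 31.7 % and 35.1 % (pellets of 35669 and 35670), and 21.6 % and 27.9 % (supernatants). CpG 8 stood at 75.5 %, 81.8 %, 70.4 %, 65.8 %, 78.4 % and 78.1 % in the same order. Every sperm library thus had CpG 8 more than 30 points above CpG 20. CpG 20 was also below the mean of the 20 CpGs in all 4 tails and all 4 e9.5 tissues.

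**Figure D2:**
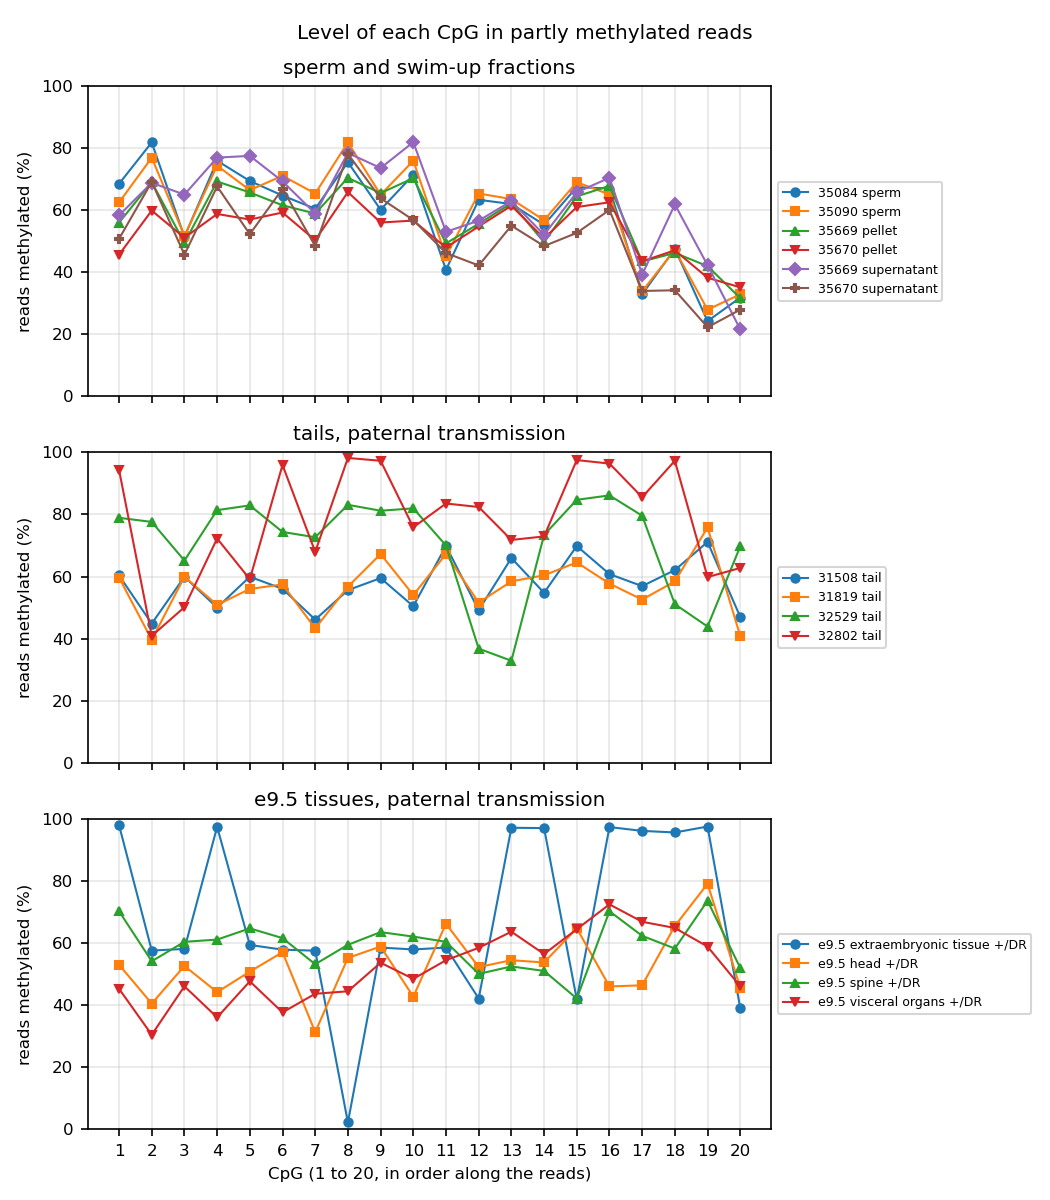
Percentage of partly methylated reads with each of the 20 CpGs methylated, in the 6 sperm libraries (top), 4 tails (middle) and 4 e9.5 tissues of paternal transmission (bottom), 1 line per library. The 6 sperm lines fall together at CpGs 17, 19 and 20, whereas tails and e9.5 tissues do not share 1 course and extraembryonic tissue ranges from 2.1 % at CpG 8 to 97.9 % at CpG 1. CpG 20 lies below the mean of the 20 CpGs in every tail and e9.5 tissue as well.

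In tails, the mean was highest at CpG 15 (79.2 % ± 14.9, n = 4) and lowest at CpG 2 (50.7 % ± 18.05). The lines of single tails ran far apart. CpG 13, for instance, was methylated in 32.9 % of the partly methylated reads of 32529 and in 58.4 to 71.8 % of those of the other tails. In e9.5 tissues, CpG 19 had the highest mean (77.2 % ± 15.98, n = 4) and CpG 8 the lowest (40.3 % ± 26.2). The value at CpG 8 rests on extraembryonic tissue, where it was 2.13 %, against 44.4 to 59.4 % in the other 3 tissues. Without extraembryonic tissue CpG 19 remained the highest, at 70.5 % ± 10.5 (n = 3), and the lowest was CpG 2 at 41.6 % ± 11.9. In oocyte pool 2, CpGs 2, 3, 5 and 9 were methylated in at least 99.8 % of these reads and the other 16 in at most 1.3 %.

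To compare libraries whose reads held different numbers of methylated CpGs, the level of each CpG was taken relative to the mean of all 20 in that library. Sperm animals (n = 4, with the mean of pellet and supernatant as 1 value per swim-up male) were compared with the 4 tails by exact permutation tests, two-sided. None of the 20 CpGs passed after Benjamini-Hochberg adjustment over the 20 (0 %, smallest adjusted p = 0.114), and 5 of 20 (25 %) had an unadjusted p under 0.05. These were the 5 CpGs at which the groups did not overlap, each with the smallest p that 4 against 4 can give, 0.0286. Sperm was higher at CpG 2 (by 30.4 points) and CpG 4 (by 16.1), and lower at CpG 11 (by 18.5), CpG 17 (by 23.8) and CpG 20 (by 16.2). At CpG 17 the relative level was -25.7 and -26.0 points in unfractionated sperm of 35084 and 35090, -14.0 and -9.6 in the pellets of 35669 and 35670, and -22.5 and -17.2 in their supernatants. In the tails it was -0.60 (31508), -4.0 (31819), 9.2 (32529) and 7.5 (32802). At CpG 11, every sperm library was under its own mean, by 4.9 to 17.8 points, and 32529 was the only tail that was. At CpG 20, all 4 tails (-15.8 to -0.66 points) and all 4 e9.5 tissues (-29.3 to -5.94 points) were under their own means too.

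The e9.5 tissues of paternal transmission did not separate from the tails at any CpG. None of 20 passed after adjustment (0 %, smallest adjusted p = 0.857), none had an unadjusted p under 0.05 (smallest p = 0.0857, exact permutation test), and groups overlapped at all 20. Leaving out the head and the F4 tails that share patterns with it also gave 0 CpGs in both comparisons. Those counts were fixed by the design, since 4 sperm animals against 2 tails cannot go below an exact p of 0.0667, nor 3 tissues against 2 tails below 0.1.

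Reads with 17 to 19 methylated CpGs were looked at next, because the rule did not use them. In unfractionated sperm, these reads lacked 5mC most often at the same CpGs: 59.8 % (35084) and 71.4 % (35090) had CpG 19 methylated, 69.6 and 71.6 % CpG 20, 73.8 and 74.2 % CpG 17, and 80.2 and 80.8 % CpG 11. All other CpGs but CpG 3 were methylated in at least 86.8 % of these reads. The swim-up fractions are not described for this class of reads. In the same class of reads, the lowest CpG differed between tails: CpG 12 in 31508 (82.7 %), CpG 20 in 31819 (80.3 %), CpG 13 in 32529 (65.0 %) and CpG 19 in 32802 (75.3 %).

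Position along the read was summarised as a tilt, the mean level of CpGs 1 to 10 minus that of CpGs 11 to 20, in percentage points. It was 18.7 and 18.4 in unfractionated sperm, 12.4 and 5.79 in the pellets of 35669 and 35670, and 18.3 and 17.7 in their supernatants, so that all 6 sperm libraries had more 5mC in the part of the read near its start. In tails it was -6.47 (31508), -4.28 (31819), -5.80 (32802) and 15.1 (32529). Sperm animals averaged 16.04 ± 3.3 (SD, n = 4) and tails -0.36 ± 10.4 (n = 4), a difference of 16.4 points that did not pass (exact permutation test p = 0.0571, adjusted p = 0.514 over 9 tests). These groups overlapped only through 32529, since the lowest sperm animal, 35670, had 11.7. Without the F4 tails the difference was 11.4 points. Tails of paternal transmission under 200 partly methylated reads had tilts of 24.5 (32339), 18.8 (32415), 14.2 (32530), 12.2 (30999), 5.68 (31150), 4.35 (31092), 3.71 (31153) and -15.8 (31078). Of these, 32339, 32415, 32530 and 30999 lay above the lowest sperm animal. The contrast thus covers only the 4 tails that met the limit. The e9.5 tissues had -15.8 (extraembryonic tissue), -8.79 (head), 3.80 (spine) and -17.3 (visceral organs). Their mean of -9.52 ± 9.6 lay 9.16 points under that of the tails (exact permutation test p = 0.229, adjusted p = 0.514), and 14.4 points under it without the head and the F4 tails (p = 0.3, exact permutation test). With each pattern counted once per library, sperm exceeded tails by 8.90 points and e9.5 tissues lay 0.43 points under tails. Counted in this way, the tilt was 3.07 in 31508, 6.53 in 31819, 4.96 in head and 3.43 in visceral organs, all of which had a negative tilt over reads.

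The supernatant had the higher tilt in both males, by 5.92 points in 35669 and 11.9 in 35670. With 2 pairs, the exact sign-flip test cannot go below 0.5, and its p was 0.5 (adjusted p = 0.562). When each pattern was counted once per library, the mean difference was -0.44 points.

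The 4 CGCG doublets (CpGs 2 and 3, 4 and 5, 8 and 9, and 10 and 11) gave a local contrast in which neighbours lie 2 nt apart. In sperm, the first CpG of a doublet was more often methylated than the second in 23 of 24 cases (6 libraries from 4 males, 4 doublets each). Pellet and supernatant of a male, and the doublets of a library, are not independent cases. The exception was the doublet at CpGs 4 and 5 in the supernatant of 35669, with 76.9 against 77.5 %. For CpGs 10 and 11, partly methylated reads of 35084 had 71.4 against 40.8 % and those of 35090 75.9 against 45.1 %. The mean of the 4 doublets, as the level of the first CpG minus that of the second, was 20.7 and 20.2 points in unfractionated sperm, 12.3 and 7.26 in the pellets, and 9.25 and 15.9 in the supernatants. In tails it was -12.1 (31508), -12.3 (31819), -0.73 (32802) and 6.20 (32529), and the first CpG was higher in 5 of 16 cases. These were 3 doublets of 32529 and 2 of 32802, and none of the F4 tails, which share patterns with the head. Without the F4 tails, the tails thus had no common order. In e9.5 tissues it was -11.5 (head), -10.6 (visceral organs), -4.86 (extraembryonic tissue) and -3.06 (spine), with the first CpG higher in 2 of 16. All 6 sperm libraries lay above all tails and e9.5 tissues. This contrast was chosen after the levels had been seen and was not tested.

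Runs of equal state were longer than a random order of the same CpGs would give in 14 of the 15 libraries. For each read the expected number of switches among its 19 neighbouring pairs follows from its number of methylated CpGs, and the switch ratio is the observed number over the expected one. It was 0.77 and 0.76 in unfractionated sperm, 0.69 and 0.61 in the pellets of 35669 and 35670, and 0.75 and 0.72 in their supernatants. It was 0.47 in visceral organs, 0.59 in spine, 0.60 in head and 0.74 in extraembryonic tissue. Tails had 0.63 (31508), 0.64 (31819), 0.73 (32529) and 1.00 (32802). Over reads, the tail of 32802, in which 5 patterns held 76.7 % of the reads, was therefore the only library at the value of a random order. Oocyte pool 2 had 0.94. With each pattern counted once per library, the ratio was 0.85 in 32802, 0.69 in visceral organs, 0.71 in spine and 0.75 in head. A methylated run spanned 3.19 CpGs in sperm of 35084, compared with 2.49 for a random order, and 4.27 CpGs in visceral organs, compared with 2.21.

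The switch ratio did not differ detectably between sperm animals (0.73 ± 0.05, n = 4) and tails (0.75 ± 0.17, n = 4), with an exact permutation test p of 0.943 (adjusted p = 0.943). The e9.5 tissues (0.60 ± 0.11, n = 4) lay 0.15 under the tails (exact permutation test p = 0.171, adjusted p = 0.514), and 0.26 under them without the head and the F4 tails. With each pattern counted once per library, the e9.5 tissues lay only 0.039 under the tails. Without the F4 tails, sperm lay 0.14 under the tails, and without 32802 it lay 0.0637 above them. The supernatant exceeded the pellet by 0.06 in 35669 and 0.12 in 35670 (exact sign-flip test p = 0.5, adjusted p = 0.562).

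The simplest partly methylated reads had a single switch, that is, 1 block of methylated CpGs next to 1 block of unmethylated CpGs. Apart from oocyte pool 2, which had none, there were 1950 such reads among 19585. They made up 38.8 % of the partly methylated reads in visceral organs, 32.7 % in head, 25.7 % in spine and in the tail of 31819 and 25.4 % in that of 31508. In sperm they made up 3.94 and 4.54 % (unfractionated), 9.01 and 16.2 % (pellets) and 5.28 and 8.31 % (supernatants). The tail of 32529 had 5.89 %, that of 32802 0.451 % and extraembryonic tissue 0.392 %. For a random order of the same number of methylated CpGs, the share would be between 0.011 and 0.035 % in these libraries.

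By the rule, a read with 1 switch can break only after CpGs 4 to 16, which are 13 places. Breaks were unevenly spread over them. After CpG 11, where the next CpG is 22 nt away, lay 618 of the 1950 breaks (31.7 %), and after CpG 16, at a distance of 15 nt, lay 466 (23.9 %). Together these places held 55.6 % of the breaks and 30.6 % of the length between CpGs 4 and 17. The sequences between these CpGs are among those shown above. Distance alone did not order the places, since only 176 breaks (9.03 %) fell after CpG 13, which is followed by 20 nt without a CpG. In 9 of the 12 libraries with at least 10 such reads, CpGs 11 and 16 were the 2 most frequent places, and their share ran from 39.1 % (35090) to 65.0 % (supernatant of 35669). The exceptions were unfractionated sperm of 35090, the supernatant of 35670 and visceral organs, in which CpG 11 was still among the leading pair.

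**Figure D3:**
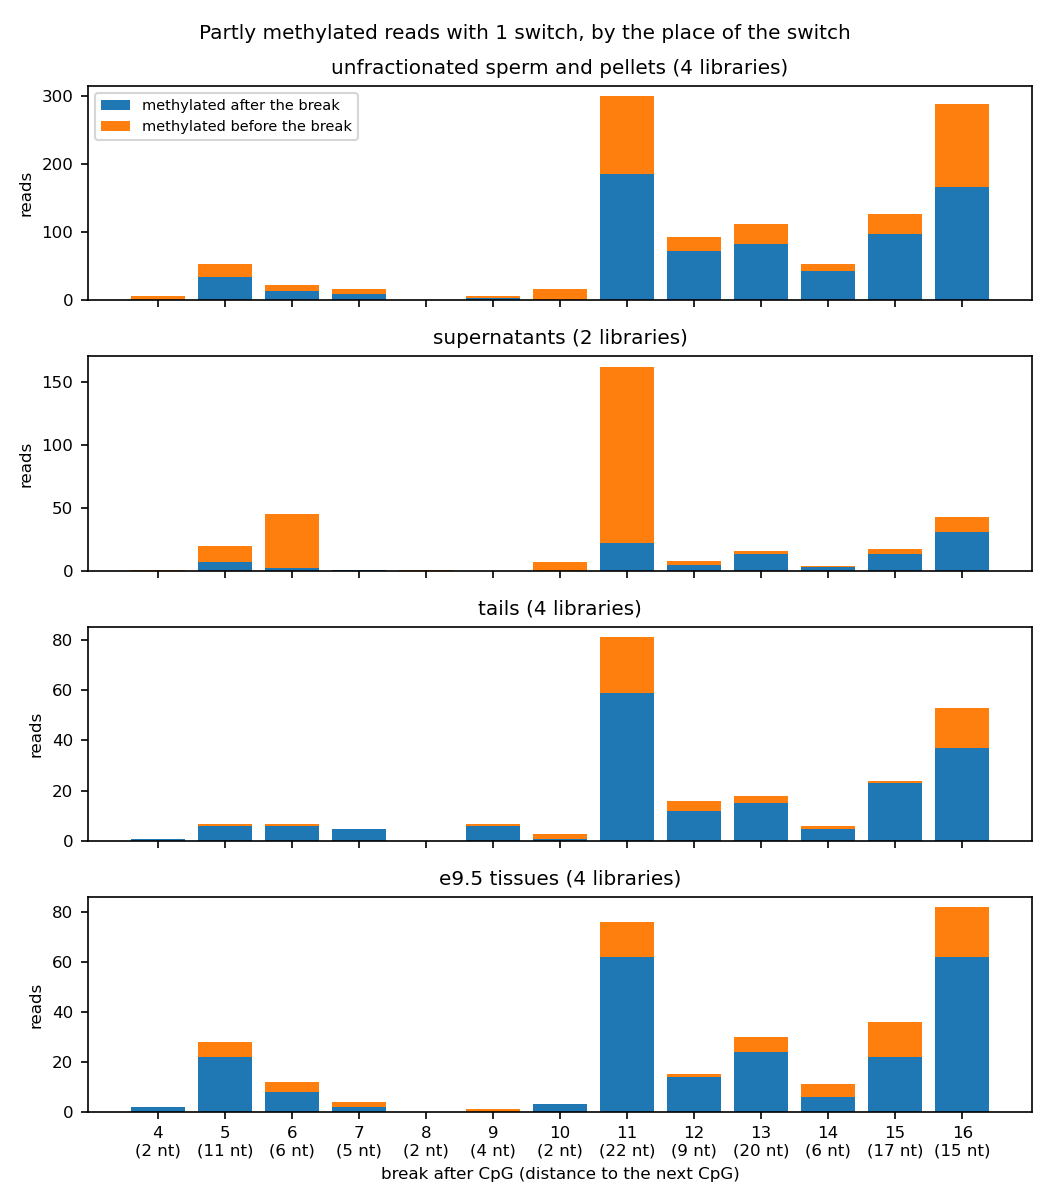
Number of partly methylated reads with 1 switch by the CpG after which the state changes, with the distance to the next CpG, in unfractionated sperm and pellets, supernatants, tails and e9.5 tissues. The bars after CpGs 11 and 16 are the tallest outside the supernatants, and most supernatant reads with the break after CpG 11 (140 of 162) are methylated before it.

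The orientation of the blocks differed between libraries. Methylated CpGs lay after the break in 84.7 % of the reads with 1 switch in the tail of 31508, 78.1 % in 31819, 71.0 % in 32529, 81.4 % in visceral organs, 75.3 % in head and 70.1 % in spine. In the pellets the share was 53.6 % (35669) and 72.9 % (35670), and in the supernatants of the same males 33.6 and 26.9 %. Unfractionated sperm had 46.2 and 47.8 %. Both supernatants were thus below both pellets, and they were the only libraries under 46 % apart from the tail of 32802, which had 2 such reads. Of the supernatant reads with 1 switch, 140 of 325 had the same pattern, methylated from CpG 1 to CpG 11 and unmethylated beyond. It made up 63 of the 95 reads methylated before the break in 35669, and 77 of the 133 in 35670. A further 42 of those 133 had 1 other pattern, methylated from CpG 1 to CpG 6. The low shares in the supernatants thus rest largely on reads with these breaks. Break and orientation fully determine a pattern with 1 switch, so reads with the same break and orientation are alike by definition. Whether they are copies of 1 template was not tested.

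Patterns with 1 switch were also those found in the most libraries. Of the 5448 patterns in the 15 libraries, 4700 were found in only 1, and 6 were found in 13, which was the highest number. All 6 had 1 switch, and these 4 were read most.
Unmethylated to CpG 11: ○○○○○○○○○○○●●●●●●●●●
Unmethylated to CpG 16: ○○○○○○○○○○○○○○○○●●●●
Methylated to CpG 11: ●●●●●●●●●●●○○○○○○○○○
Methylated to CpG 16: ●●●●●●●●●●●●●●●●○○○○
They were read 328, 296, 290 and 170 times. Patterns with 6 or more switches were mostly found in single libraries, as were patterns of all kinds (4700 of 5448). A pattern read once can lie in only 1 library, so these counts depend on read numbers. In unfractionated sperm of 35084, for example, 408 of 505 patterns were read once. Of the patterns with 6 or more switches, 3409 were in 1 library, 177 in 2, 27 in 3, 9 in 4, 1 in 5 and 2 in 8.

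The variety of patterns set sperm libraries apart from one another. The number of different patterns expected in 200 reads drawn from a library was 181.0 (35084) and 182.0 (35090) in unfractionated sperm and 166.4 (35669) and 159.2 (35670) in the pellets, but 87.3 and 87.7 in the supernatants of the same males. The difference of the supernatant from the pellet was -79.0 in 35669 and -71.5 in 35670, with a p of 0.5, the smallest that 2 pairs allow (exact sign-flip test, adjusted p = 0.562). In the supernatants, 17 (35669) and 15 (35670) patterns held 50 % of the partly methylated reads, compared with 150 and 137 in the pellets and 175 and 198 in unfractionated sperm. The most frequent pattern of the supernatant of 35669 was read 126 times (4.65 %) and occurred in no other library.
Most frequent in the supernatant of 35669: ●●●○○●○●●●●●○●●●○●●●
Most frequent in unfractionated sperm of 35090: ●●○●●●●●●●○●●●●●○○○○
The most frequent pattern of unfractionated sperm of 35090 was read 10 times (0.987 %). It lacks 5mC at CpGs 3, 11 and 17 to 20, which are also CpGs of low level in the sperm profile.

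**Figure D4:**
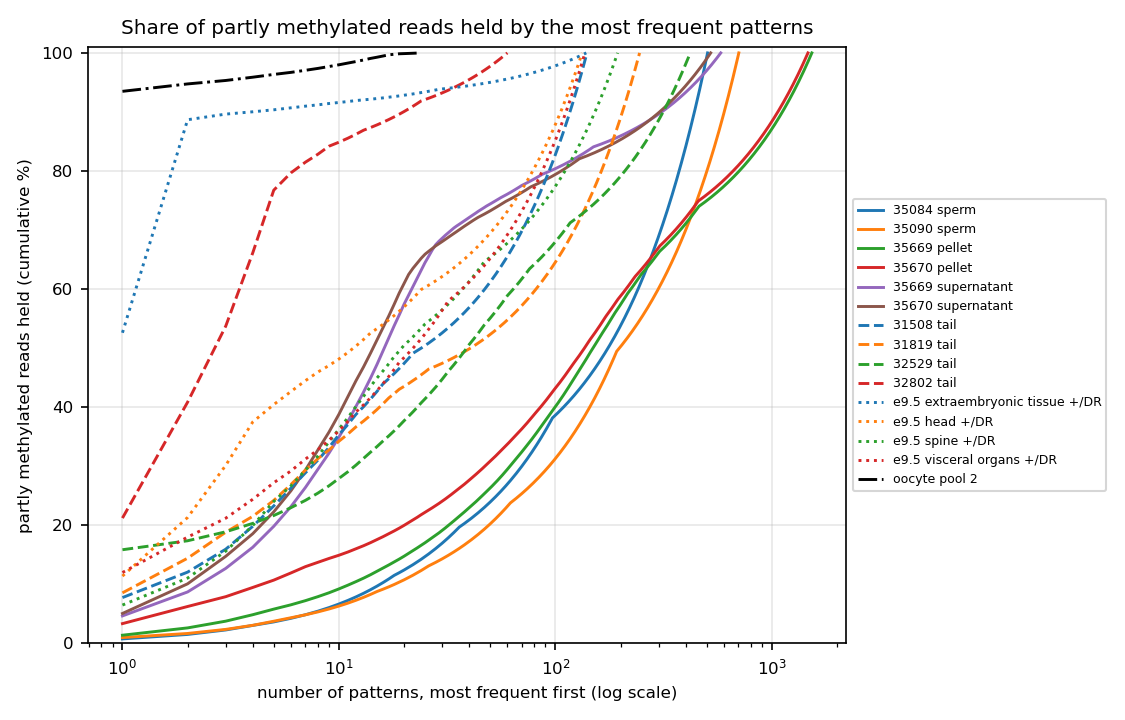
Share of the partly methylated reads (vertical axis, cumulative %) held by the most frequent patterns (horizontal axis, number of patterns on a log scale), 1 line per library. The supernatants rise before the pellets and unfractionated sperm, reaching 50 % with 17 and 15 patterns, and oocyte pool 2 and extraembryonic tissue pass 50 % with 1 pattern.

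Between tails, the number per 200 reads was 124.7 in 32529, 130.6 in 31819, 123.6 in 31508 and 36.2 in 32802. In e9.5 tissues it was 115.4 in visceral organs, 110.8 in spine, 103.3 in head and 22.5 in extraembryonic tissue. Sperm animals (153.3 ± 32.6, n = 4) exceeded tails (103.8 ± 45.1, n = 4) by 49.5 patterns, which did not pass (exact permutation test p = 0.2, adjusted p = 0.514). Without the F4 tails they exceeded them by 72.9. The e9.5 tissues (88.0 ± 44.0, n = 4) had 15.8 fewer than tails (exact permutation test p = 0.457, adjusted p = 0.562). Without extraembryonic tissue, the e9.5 tissues instead had 6.07 more than tails. Without the head and the F4 tails, they had 2.43 more than the remaining tails.

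A few patterns supplied most of the partly methylated reads in 3 libraries. In extraembryonic tissue, 2 patterns were read 939 and 644 times and made up 52.6 and 36.1 % of its 1785 partly methylated reads.
Most frequent in extraembryonic tissue: ●●●●●●●○●●●○●●○●●●●○
The next in extraembryonic tissue: ●○○●○○○○○○○●●●●●●●●●
The low level of CpG 8 in this tissue comes from both, as each is unmethylated there. In the tail of 32802, the 5 most frequent patterns were read 94, 87, 57, 55 and 47 times among 443. The pattern read 47 times was also read 4 times in the tail of 32803, an animal of maternal transmission sequenced in the same run. In oocyte pool 2, a single pattern with CpGs 2, 3, 5 and 9 methylated was read 3204 times, or 93.5 % of 3427, and patterns that differed from it at 1 CpG were read a further 212 times. The share of 21.2 % partly methylated reads in this pool is thus the share of 1 pattern and its near copies, and oocyte pool 1 had 1 partly methylated read.
Most frequent in oocyte pool 2: ○●●○●○○○●○○○○○○○○○○○

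**Figure D5:**
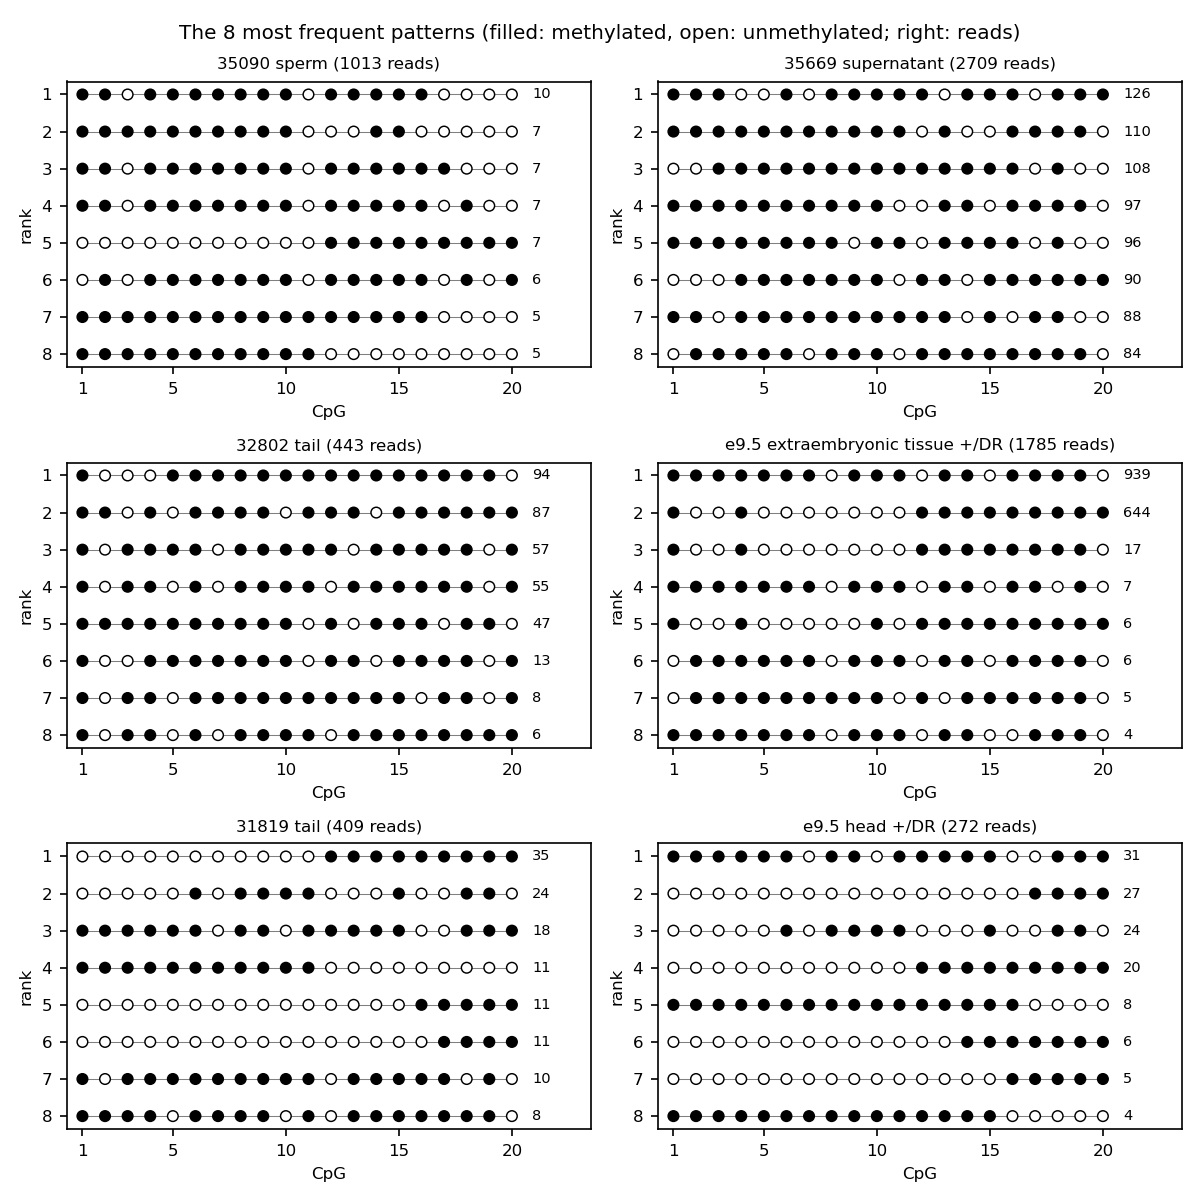
The 8 most frequent patterns of partly methylated reads in 6 libraries, with CpGs 1 to 20 from left to right, filled circles methylated and open circles unmethylated, and the number of reads at the right. Counts fall from 939 to 4 in extraembryonic tissue but only from 10 to 5 in unfractionated sperm of 35090, and the tail of 31819 and the e9.5 head have patterns in common.

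Conversion was nearly complete in partly methylated and in other reads alike. Unconverted CpHs, cytosines outside CpGs that remained unconverted, were 0.279 to 0.697 % of all CpHs in partly methylated reads of the 15 libraries, and 0.402 to 0.677 % in the other complete reads. In the 4 tails, partly methylated reads had 0.697 against 0.677 % (31508), 0.628 against 0.580 % (31819), 0.433 against 0.426 % (32529) and 0.659 against 0.526 % (32802). The mean difference of 0.052 points was positive in 4 of 4 tails, with a p of 0.125 in the exact sign-flip test, the smallest that 4 libraries allow. Without the F4 tails it was 0.0699 points in 2 tails.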

How the data were processed

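Bisulfite PCR products were sequenced on a MiSeq in 2 runs. The authors aligned reads to the unconverted 250-nt reference with QUMA (version not given in the sources used here), and replicates were not pooled. The deposited files give, per read, counts of mismatches, methylated CpGs and unconverted CpHs, the percent identity and the percent of CpHs converted (at least 95 % in reads not excluded), and a call at each CpG. Of the files, 33 were made with a lower identity limit of 90 % and 3 with 98 %.

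From the 21 calls listed, the CpG inside the forward primer was dropped, and from the 23 in oocytes the last 3, leaving 20 shared CpGs. A call string was lost in 3509 reads of 8 libraries, of which 221 met 98 % identity. A further 3073 reads at that identity lacked a call at some CpG. Both were left out.

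Groups came from the sample labels. The members of the read class and the measures were chosen with earlier results of these data known. CpGs named are those highest or lowest in a group and those whose groups did not overlap. Patterns named are the most frequent ones, with those found in most libraries. Tilt, switch ratio and patterns per 200 reads (the exact expectation under drawing without replacement) were compared by two-sided exact permutation tests. Pellet and supernatant come from the same sperm sample and were paired by animal in exact sign-flip tests. Adjustment was by Benjamini-Hochberg over 9 tests, or over 20 CpGs, with 0.05 as threshold. Nothing says that the e9.5 tissues came from separate embryos, so their spread may be within 1 litter or embryo. PCR reads carried no molecular identifiers. Alternatives changed 1 choice at a time: the identity limit, conversion, the range of methylated CpGs, patterns counted once, the minimum of reads, run 2 alone, medians, and animals or tissues left out. The exclusion of libraries with shared patterns was chosen after seeing the data. The code was tested on simulated data. Positions are those of the native sequence in NCBIM37. Computations used Python 3.11.15, NumPy 2.4.6 and Matplotlib 3.10.9.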

Additional observations from a re-analysis of the deposited data

Results flagged for a closer look

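In groups of 4 libraries or animals, Dixon's test at 95 % confidence was applied to 18 combinations of group and measure, and 4 of them had a value far from the others. Chance flags about 1 in 20 groups. Extraembryonic tissue stood apart from the other e9.5 tissues of paternal transmission in its share of partly methylated reads, 20.7 % compared with 3.34 to 4.93 %, and in its patterns per 200 reads, 22.5 compared with 103.3 to 115.4. Both values go with the 2 patterns that held 88.7 % of its partly methylated reads.

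Among the 4 tails compared, that of 32529 had a tilt of 15.1 points, compared with -6.47 to -4.28 in the others. Tails of paternal transmission under 200 partly methylated reads ranged from -15.8 (31078) to 24.5 (32339), so 32529 stands apart only within these 4. The most frequent pattern of 32529, read 167 times (15.9 %), is unmethylated at CpGs 12, 13, 18 and 19. With each pattern counted once the tilt of this library was 8.81. The tail of 32802 had 36.2 patterns per 200 reads, compared with 123.6 to 130.6. It was also the only one of these tails from sequencing run 1, and the part of the run in this value was not tested.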

How the results depend on the processing

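No comparison passed the threshold, under the choices reported or under any alternative that was tried. In tests of 4 against 4, the smallest p passes adjustment only if most tests of the set reach it. Supernatant minus pellet, with 2 pairs, cannot pass. The tilt of sperm minus tails had an exact permutation test p of 0.0286 with 5 to 15 methylated CpGs (adjusted p = 0.257). The tilt had the same values without 32529. With 6 to 14, the tilt and the switch ratio of sperm minus tails both had this p (adjusted p = 0.129). Staying on that side thus says little about stability. Of 177 recomputed values, 165 kept their direction and their side of the threshold, and 12 changed direction. The switch ratio of sperm minus tails, -0.02 as reported, was 0.13 with 6 to 14 methylated CpGs, 0.0637 with run 2 only, 0.0571 as a difference of medians and 0.0159 with unfractionated sperm only. The difference in patterns per 200 reads of e9.5 tissues minus tails, -15.8 as reported, became positive in these alternatives. It was 6.07 without extraembryonic tissue and 2.43 without the head and the F4 tails. With each pattern counted once, the tilt of supernatant minus pellet was -0.44. The excess of unconverted CpHs in partly methylated reads of tails was -0.042 points with 5 to 15 methylated CpGs and -0.054 with each pattern counted once, and it has no value where only fully converted reads are kept. The causes were not tested.

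Leaving out each animal or tissue in turn moved the switch ratio of sperm minus tails between -0.0601 and 0.0637, the patterns per 200 reads of e9.5 tissues minus tails between -38.3 and 6.07, the tilt of sperm minus tails between 14.4 and 21.6, and that of e9.5 tissues minus tails between -13.6 and -4.01. Unpaired, without the replicate block, supernatant minus pellet had a p of 0.333 in the exact permutation test of tilt, with the same mean difference of 8.89 points. Designs of 4 against 4 cannot go below 0.0286, and 2 pairs cannot go below 0.5. In libraries of 232 to 443 partly methylated reads, counting error limits levels of single CpGs.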

Other observations

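The 4 e9.5 tissues of maternal transmission were below the limit of 200, with 36 to 45 partly methylated reads each and 167 in all, and belong to no comparison above. Their profile along the CpGs was nonetheless alike between tissues. CpG 1 was methylated in 77.2 % ± 2.7 (SD, n = 4 tissues), CpG 5 in 81.6 % ± 2.1, CpG 8 in 19.8 % ± 2.8 and CpG 20 in 3.04 % ± 3.0 of these reads. In all 4 CGCG doublets the second CpG was the higher, with means of 68.6 against 23.4 % (CpGs 3 and 2), 81.6 against 37.4 % (CpGs 5 and 4), 72.2 against 19.8 % (CpGs 9 and 8) and 71.3 against 33.4 % (CpGs 11 and 10), and in each doublet the lowest tissue for the second CpG lay above the highest tissue for the first. This order is the opposite of that in sperm, where the first CpG was the higher in 23 of 24 cases. It is not particular to maternal transmission, since the first CpG was the higher in only 2 of 16 cases in e9.5 tissues of paternal transmission. No single pattern carried the profile, as the most frequent one held 2.38 to 6.82 % of the reads of a tissue. Unconverted CpHs were 0.296 to 0.606 % in these reads and 0.429 to 0.725 % in the other reads of the same libraries, and 68.9 to 75.0 % of them matched the reference without a mismatch, compared with 62.8 to 67.6 % of the others. The 8 tails of maternal transmission, with 425 partly methylated reads, had no such order in every doublet: CpG 10 was at 46.6 % and CpG 11 at 24.3 %. In the other doublets the second CpG had the higher mean. The means were 35.0 against 34.0 % (CpGs 3 and 2), 30.2 against 19.0 % (CpGs 5 and 4) and 49.5 against 38.6 % (CpGs 9 and 8). Single tails overlapped in each.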
